A study of Homo sapiens with 15 samples.

Results

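The genes described here are 182 human zinc finger genes. They are the names made of ZNF, a number and at most 1 further letter that have both a plain row and a row with the suffix .primary in the tables of both cell lines. They were taken from 12482 names in both tables, of which 6932 have both rows in both. The 22Rv1 table holds 361 ZNF names, of which 225 have both rows, 77 only a plain row and 59 only a .primary row. The LNCaP table holds 400, of which 261 have both rows, 70 only a plain row and 69 only a .primary row. The rule uses no measured value beyond the presence of the rows, but it was set with earlier results of these data known.

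RNA immunoprecipitation followed by sequencing was done in 22Rv1 and LNCaP, both established human prostate cancer cell lines, after formaldehyde fixation. In 22Rv1 there were 2 libraries with an antibody to Brg1, 2 with an antibody to Sfpq, 3 with IgG and 2 of Input RNA. In LNCaP there were 2 libraries each of Brg1, IgG and Input, and none with Sfpq. No cell was treated, and the labels name no genetic change. The labels do not say whether replicates came from separate cultures, so p-values measure only the spread between these libraries, which may be technical.

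Most ZNF proteins carry arrays of C2H2 zinc fingers, small folds held by a zinc ion that read DNA sequence. Many also carry a KRAB domain, which recruits the co-repressor TRIM28 and through it SETDB1, the enzyme that methylates histone H3 at lysine 9. A large share of the family lies in clusters on chromosome 19, where copies arose by tandem duplication and still share sequence. Brg1 is the ATPase of SWI/SNF, a complex that moves nucleosomes. Sfpq is a nuclear RNA-binding protein of paraspeckles with roles in splicing and transcription. IgG gives the background of the precipitation, and Input is the RNA before it.

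All 182 genes matched a RefSeq entry, 181 of them by current symbol. They lie on 21 chromosomes, with 60 on chromosome 19. RefSeq lists 179 as protein coding and 3 as transcribed pseudogenes. Gene length ran from 3500 to 467802 bp with a median of 28612 bp. Counting may split reads between near-identical family members or between a gene's own plain and .primary rows, and the sources used here do not state what the suffix stands for.

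The deposited values are whole reads multiplied by 1 factor per library, so reads were recovered and each row was expressed as RPM, its reads per 1e6 reads of the library. The deepest library held 47871438 reads in 22Rv1 and 7506724 in LNCaP. The 2 LNCaP IgG libraries stand apart: they held 22184 and 46297 reads, and 141 and 135 of the 182 plain rows had no read there, so no test uses them in the main fits. The 22Rv1 IgG libraries were also shallow, with 4424105, 1751329 and 490879 reads. Of 10 prostate luminal markers, 6 had a row in 22Rv1 and 10 in LNCaP. Their summed level was 197 to 400 RPM in 22Rv1 Brg1, Sfpq and Input and 4157 to 4806 RPM in LNCaP Brg1 and Input. Of 3 basal markers, none had a row in 22Rv1 and 1 had one in LNCaP, at no more than 6.64 RPM. Of 3 endothelial markers none had a row in 22Rv1 and 1 in LNCaP, at no more than 33.7 RPM. Of 5 fibroblast markers 1 had a row, at no more than 24.8 RPM, and of 4 leukocyte markers 1 had a row in 22Rv1, at no more than 9.51 RPM.

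The plain rows of the ZNF genes together took 0.480% and 0.497% of the reads in the 22Rv1 Input libraries. They took 0.307% and 0.316% in Brg1 and 0.996% and 0.939% in Sfpq. The 3 IgG libraries gave 0.401%, 0.434% and 0.558%. Brg1 thus lay below both Input libraries and Sfpq above every other library, while IgG spanned Input. The .primary rows ran the other way, at 0.506% and 0.465% in Input, 0.724% and 0.681% in Brg1, and 0.315% and 0.377% in Sfpq. IgG gave 0.568%, 0.597% and 0.421%. In Brg1, 70.2% and 68.3% of the ZNF reads were on .primary rows, against 51.3% and 48.4% in Input and 24.0% and 28.7% in Sfpq. An exact two-sided permutation test over libraries gave p = 0.333 for Brg1 and for Sfpq against Input in each of these measures, the smallest that 2 against 2 libraries allow. In the other names with both rows, 67.3% and 64.6% of their reads were on .primary rows in Brg1, 43.4% and 39.8% in Input, and 27.4% and 33.6% in Sfpq.

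**Figure D1:**
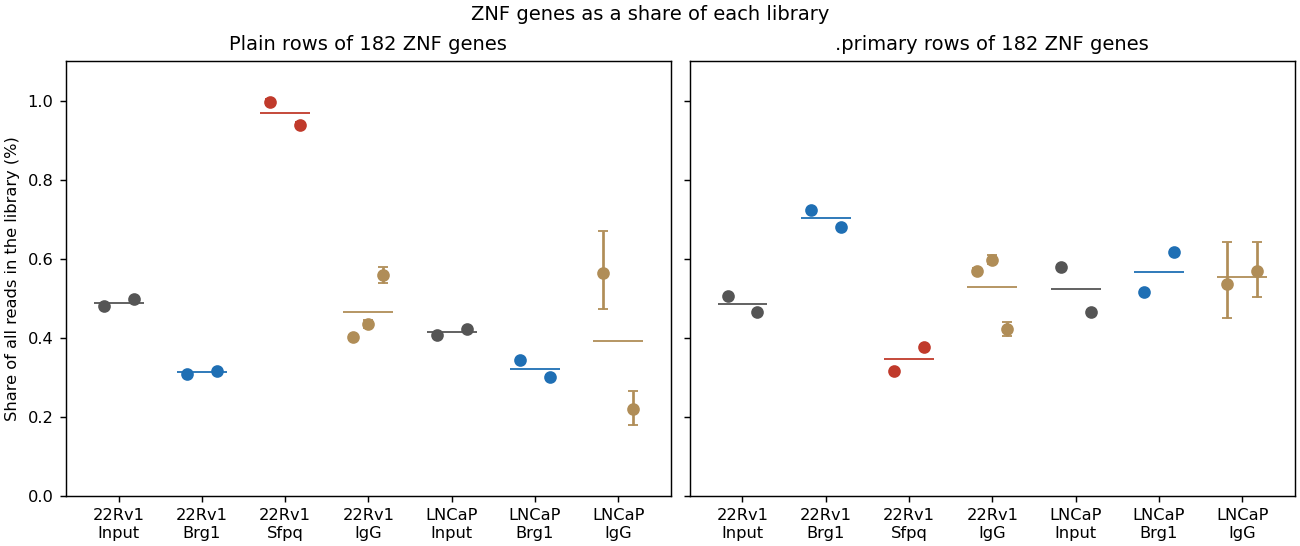
Share of all reads of a library (percent, linear axis) that fell on the plain rows (left) and the .primary rows (right) of the 182 ZNF genes. Each point is 1 library, bars are 95% Wilson intervals that cover counting error only, and horizontal lines are group means. Sfpq stands highest on plain rows, at 0.996% and 0.939%, and Brg1 highest on .primary rows, at 0.724% and 0.681%.

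Per gene, differences were tested with limma on log2(RPM + 1) over all rows of a table. A row is called where the Benjamini-Hochberg adjusted p-value is under 0.05. All 182 genes passed the filter on low values in each fit. Rows described as having the largest rises or falls are those among the called rows whose libraries do not overlap between groups. In 22Rv1, Brg1, Sfpq and IgG are all set against the same 2 Input libraries. Fold changes on this scale understate the change of rows near 1 RPM. They compare shares of a library, so the median log2 fold change of all rows was not 0. It was -0.25 for Brg1 and -0.19 for Sfpq against Input in 22Rv1, and -0.08 for Brg1 against Input in LNCaP. Trimmed mean of M values (TMM) scaling moved these medians to -0.03, -0.05 and -0.00. Counts of called rows given below at TMM or deposited scaling are of ZNF genes only. So are those with IgG added to a fit of the other groups, or with a library left out. With no share of the other names beside them, they describe the setting rather than the family.

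In 22Rv1, Brg1 precipitates held fewer plain and, for part of the family, more .primary reads of ZNF genes than Input, at shares below those of the other names. Of the 182 plain rows, 116 fell and 8 rose. Among the other 8064 names with both rows, 75.7% fell and 1.55% rose. The median log2 fold change was -0.64 for the ZNF genes and -0.77 for the others. Of the .primary rows, 58 rose and 29 fell, where 44.9% of the other names rose and 12% fell. The medians were 0.12 and 0.34. In 33 genes, or 18.1%, the plain row fell while the .primary row rose, against 31.9% of the others. This split depends on scaling: TMM gave 75 .primary rows higher and 10 lower, and the deposited scaling gave 12 and 13. Leaving out Input replicate A took the calls on .primary rows from 87 to 57.

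ZNF664, a C2H2 gene on chromosome 12, was called on both rows with Brg1, in opposite directions. Its plain row stood at 185 and 164 RPM in Input, 28.5 and 36.9 in Brg1, 302 and 279 in Sfpq, and 81.1, 205 and 238 in IgG. Brg1 lay below every other library, and the log2 fold change against Input was -2.39 (SE 0.15, adjusted p = 1.75e-08). Its .primary row stood at 42.0 and 39.4 RPM in Input, 132 and 126 in Brg1, 8.96 and 16.3 in Sfpq, and 25.8, 48.0 and 46.9 in IgG. Here Brg1 lay above every other library and Sfpq below all of them. The .primary to plain ratio of ZNF664 rose by 4.09 on the log2 scale in Brg1 (SE 0.30, adjusted p = 8.42e-10).

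The window around the RefSeq start of ZNF664 is shown because its plain and .primary rows were called in opposite directions both with Brg1 and with Sfpq in 22Rv1. It spans 250 bases before to 50 after the start, at chr12:123972965-123973264 on the + strand of GRCh38.p14. Capitals mark GGGCGG or its reverse complement CCGCCC, the core of the GC box.
ZNF664: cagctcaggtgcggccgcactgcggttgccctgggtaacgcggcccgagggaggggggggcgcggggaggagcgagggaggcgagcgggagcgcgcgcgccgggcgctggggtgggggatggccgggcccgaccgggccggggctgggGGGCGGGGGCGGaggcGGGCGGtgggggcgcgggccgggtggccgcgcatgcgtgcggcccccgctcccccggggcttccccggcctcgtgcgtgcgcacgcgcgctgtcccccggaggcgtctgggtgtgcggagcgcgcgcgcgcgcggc
The sequence is RefSeq's. The motif was searched on both strands, overlapping matches included, and stands 3 times in this window. It was present in 57.8% of the 154 ZNF windows with an entry and in 44.6% of 27305 windows of this length over all genes. A match is a description of the letters and not a bound site.

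ZNF710 and ZNF395 were, with ZNF664, the plain rows with the largest falls with Brg1. ZNF710 stood at 17.8 and 19.8 RPM in Input and 2.99 and 2.23 in Brg1, a log2 fold change of -2.46 (SE 0.22, adjusted p = 2.17e-07). Its .primary row rose, with 154 and 137 RPM in Brg1 against 56.9 and 51.0 in Input. The log2 .primary to plain ratio of ZNF710 was 5.68 and 5.92 in Brg1, 1.68 and 1.36 in Input, and 2.31, 7.34 and 1.63 in IgG. ZNF395 fell by 2.04 on the log2 scale, from 34.1 and 36.0 RPM in Input to 6.67 and 9.08 in Brg1. Its IgG libraries stood at 20.1, 6.28 and 73.3 RPM, so IgG replicate B lay below both Brg1 libraries. A lack of overlap between the Brg1 and Input libraries was a condition for naming these 3 genes.

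The plain rows that rose were few. ZNF577 had 2.46 and 4.74 RPM in Input and 9.76 and 10.9 in Brg1 (log2 fold change 1.34, SE 0.30, adjusted p = 0.000924). In IgG it had 22.6, 1.71 and 12.2 RPM, so IgG replicates A and C lay above both Brg1 libraries. ZNF605 rose by 1.02 and ZNF721 by 0.79 on the log2 scale. ZNF721 is a C2H2 gene on chromosome 4, and it had 31.7 RPM in both Input libraries against 61.3 and 49.9 in Brg1. Its IgG libraries, at 45.9, 86.8 and 59.1 RPM, reached the same range as Brg1.

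On .primary rows, the largest rises belonged to ZNF780B, ZNF704 and ZNF767P. ZNF780B, a KRAB zinc finger gene on chromosome 19, had 14.6 and 15.8 RPM in Input and 69.0 and 52.0 in Brg1 (log2 fold change 1.91, SE 0.18, adjusted p = 3.8e-07). Its IgG values were 10.4, 0.571 and 0 RPM. Brg1 therefore lay above IgG as well as Input, and the row was called against IgG too (log2 fold change 4.54, SE 1.12, adjusted p = 0.0378).

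ZNF704 and ZNF767P were different in IgG. ZNF704.primary had 91.2 and 82.4 RPM in Input, 323 and 301 in Brg1, and 275, 358 and 167 in IgG. It was the 1 ZNF .primary row that rose in IgG against Input (log2 fold change 1.54, SE 0.35, adjusted p = 0.0256), and at the deposited scaling its direction turned (-6.13). The transcribed pseudogene ZNF767P had 161 and 148 RPM in Input, 531 and 525 in Brg1, and 417, 305 and 55.0 in IgG. Neither row was called in Brg1 against IgG (adjusted p = 0.668 for ZNF704 and 0.320 for ZNF767P), and in both genes at least 2 IgG libraries lay above both Input libraries.

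The .primary rows with the largest falls were ZNF566, ZNF562 and ZNF121. ZNF562 went from 45.5 and 41.3 RPM in Input to 23.9 and 18.7 in Brg1 (log2 fold change -1.004, SE 0.19, adjusted p = 0.000203). ZNF566 fell by 1.22 and ZNF121 by 0.99 on the log2 scale. As a ratio of .primary to plain reads, 87 genes rose and 5 fell, where 65.2% of the other names rose and 0.756% fell. The median log2 ratio change was 0.84, against 1.16 in the other names.

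**Figure D2:**
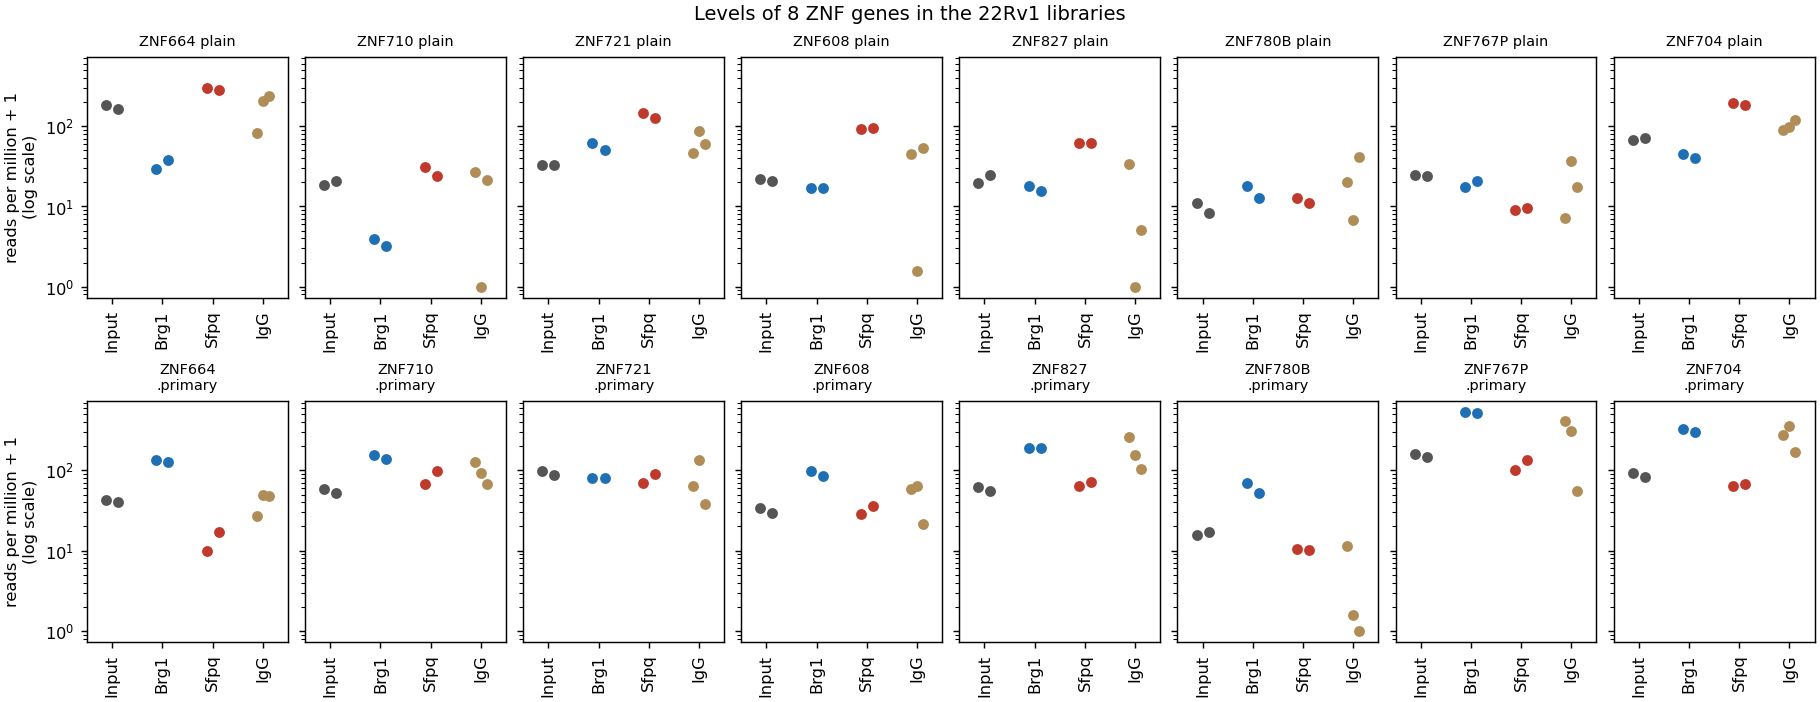
RPM plus 1 (log axis) of 8 ZNF genes in the 22Rv1 libraries, plain rows above and .primary rows below; each point is 1 library. ZNF664 reverses its order between the rows, and ZNF767P and ZNF704 have IgG points beside their Brg1 points on .primary rows.

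Sfpq precipitates in 22Rv1 held more plain reads of most ZNF genes than Input. Of the 182 plain rows, 125 rose and 6 fell, where 41.2% of the other names rose and 17.1% fell. The median log2 fold change was 0.83 in the ZNF genes and 0.27 in the others. Of the .primary rows, 110 fell and 12 rose, where 62% of the others fell and 10.9% rose, with medians of -0.61 and -0.67, so the falls were about as frequent in the ZNF genes as in the others. In 81 genes, or 44.5%, the plain row rose and the .primary row fell, against 27.6% of the others. The .primary to plain ratio fell in 139 genes and rose in 5, where 55.7% of the others fell and 9.23% rose, and its median was -1.64 against -0.95. At the deposited scaling, 16 plain rows were higher and 6 lower.

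ZNF850, ZNF608 and ZNF721 had the largest rises on plain rows. ZNF850, a KRAB gene on chromosome 19, had 8.02 and 9.6 RPM in Input, 47.8 and 36.9 in Sfpq, and 1.7 and 4.07 in Brg1 (Sfpq against Input log2 fold change 2.14, SE 0.27, adjusted p = 1.07e-05). Its IgG libraries stood at 0, 0.571 and 0 RPM. ZNF608 had 20.9 and 19.95 RPM in Input and 90.2 and 92.9 in Sfpq, with 43.6, 0.571 and 53.0 in IgG. ZNF721 had 147 and 126 RPM in Sfpq, above its 31.7 RPM in each Input library and above Brg1 and IgG.

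The window of ZNF850, at chr19:36772758-36773057 on the - strand of GRCh38.p14, is shown beside that of ZNF664 as the gene with the largest Sfpq rise. It holds no match to the motif above, so no letter is in capitals.
ZNF850: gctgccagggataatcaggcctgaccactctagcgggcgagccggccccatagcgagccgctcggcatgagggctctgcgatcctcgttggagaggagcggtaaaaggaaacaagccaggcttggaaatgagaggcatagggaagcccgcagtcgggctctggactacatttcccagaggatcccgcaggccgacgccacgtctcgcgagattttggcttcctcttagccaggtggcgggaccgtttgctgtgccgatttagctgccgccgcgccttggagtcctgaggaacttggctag
The absence of a match says only that these letters are not in this window.

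ZNF767P, ZNF692 and ZNF789 went the other way on plain rows. ZNF767P had 23.3 RPM in each Input library and 7.98 and 8.57 in Sfpq (log2 fold change -1.39, SE 0.19, adjusted p = 1.75e-05). ZNF692 fell by 1.33 and ZNF789 by 1.24 on the log2 scale. On its .primary row ZNF767P had 100 and 135 RPM with Sfpq, below both Input libraries.

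The .primary row that rose most with Sfpq was ZNF598. ZNF598 is a ubiquitin ligase that marks collided ribosomes. It had 26.9 and 22.0 RPM in Input, 69.8 and 108 in Sfpq, 26.4 and 22.9 in Brg1, and 16.0, 1.14 and 10.2 in IgG (Sfpq against Input log2 fold change 1.79, SE 0.19, adjusted p = 2.39e-06). Both Sfpq libraries lay above every other library. ZNF646 rose by 1.52 and ZNF787 by 1.20 on the log2 scale. ZNF646.primary had no read in any IgG library.

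ZNF189, ZNF460 and ZNF664 had the largest falls on .primary rows with Sfpq. ZNF189 had 15.7 and 18.9 RPM in Input and 6.72 and 2.45 in Sfpq (log2 fold change -1.82, SE 0.31, adjusted p = 0.000123). Its plain row rose from 9.21 and 14.9 to 47.9 and 40.9 RPM. The ratio of ZNF189 therefore moved furthest, by -3.95 on the log2 scale (SE 0.44, adjusted p = 4.91e-07), followed by ZNF658 at -3.53 and ZNF561 at -3.29. Among called ratios, ZNF444, ZNF598 and ZNF767P had the largest rises, of 1.95, 1.84 and 1.06.

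**Figure D3:**
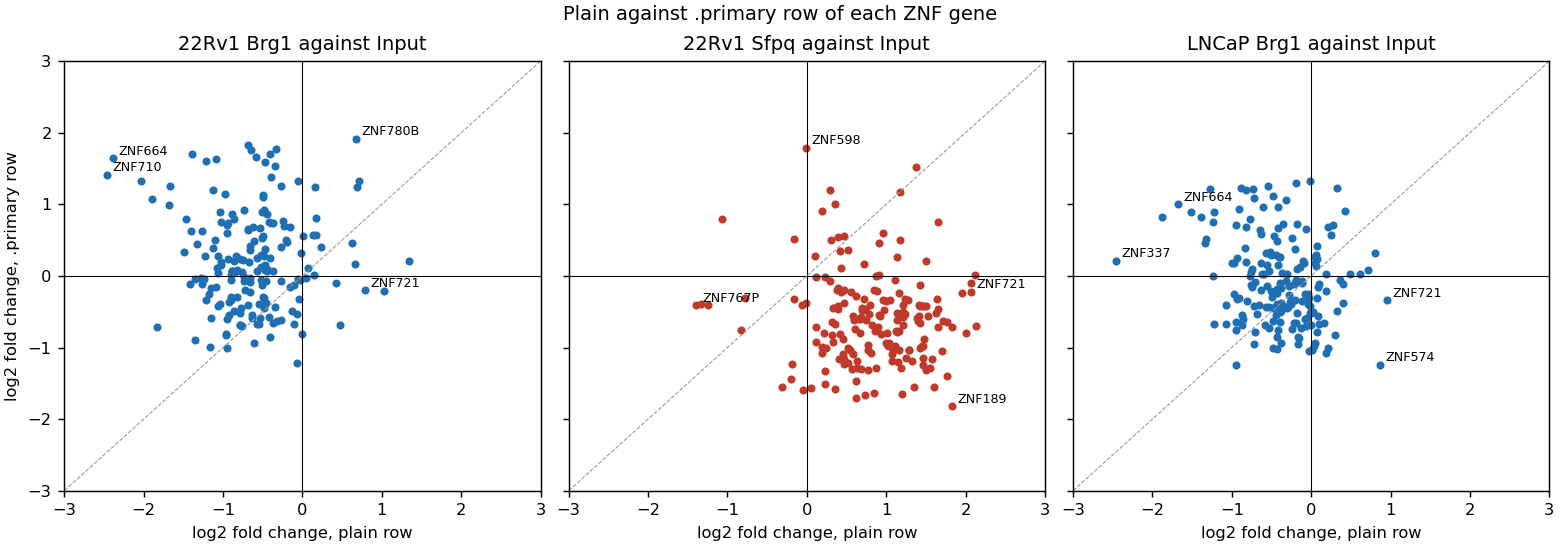
Log2 fold change of the plain row (x axis) against that of the .primary row (y axis) for the 182 ZNF genes; each point is 1 gene and the dashed line marks equality. Many Brg1 points in 22Rv1 lie at upper left, and most Sfpq points lie at lower right, where 81 genes were called higher on the plain and lower on the .primary row. With Sfpq, ZNF598 is the highest point on the y axis; the right panel shows Brg1 in LNCaP.

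Compared directly in 22Rv1, Brg1 held fewer plain reads than Sfpq in 159 genes and more in 4. Among the others, 75.3% were lower and 3.68% higher. On .primary rows 126 genes were higher in Brg1 and 9 lower, where 72.6% and 8.04% of the others were. The ratio was higher in 168 genes and lower in 1, against 81.4% and 2.44%. The median differences were -1.52 on plain rows, 0.83 on .primary rows and 2.43 in the ratio, and -1.01, 1.05 and 2.16 in the other names. In 109 genes, or 59.9%, the plain row was lower and the .primary row higher in Brg1, against 56.3% of the others.

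These 22Rv1 calls came from a fit without the IgG libraries. With IgG in the same fit, none of the 182 genes was called in Brg1 or Sfpq against Input on either row or in the ratio, and 7 plain rows, 4 .primary rows and 0 ratios were called in Brg1 against Sfpq. At an unadjusted p-value under 0.05 that limma fit gave 7 plain rows, 12 .primary rows and 7 ratios for Brg1 against Input. It gave 17, 9 and 19 for Sfpq against Input, and 36, 24 and 44 for Brg1 against Sfpq. The same shares were 3.85%, 6.59% and 3.85% of the ZNF genes and 8.06%, 10.2% and 6.24% of the other names for Brg1. They were 9.34%, 4.95% and 10.4% against 5.95%, 7.38% and 4.24% for Sfpq. For Brg1 against Sfpq they were 19.8%, 13.2% and 24.2% against 17.4%, 21.5% and 23.1%. The median residual SD over all rows was 0.175 log2 units without IgG and 1.07 with it.

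**Figure D4:**
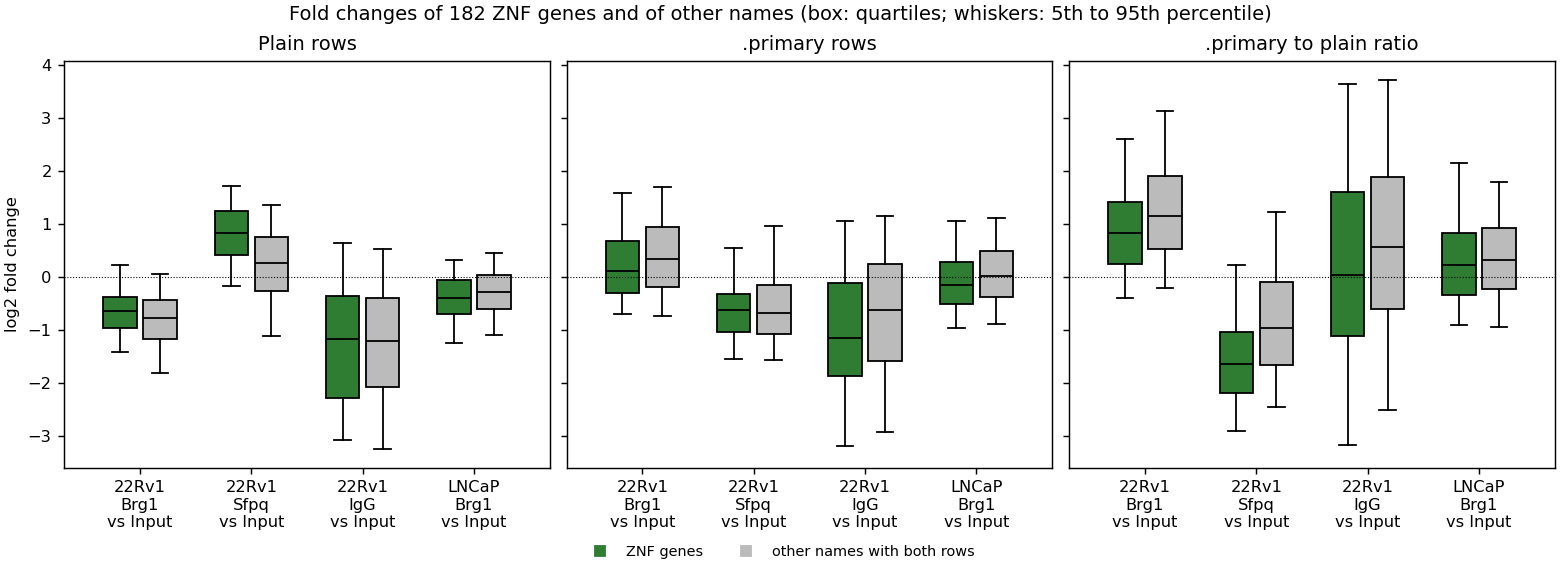
Log2 fold changes of the 182 ZNF genes (green) and of the other names with both rows (grey) on plain rows, .primary rows and in the .primary to plain ratio. Boxes are quartiles with the median, and whiskers run from the 5th to the 95th percentile of genes; the Sfpq boxes of ZNF genes sit at a median of 0.83 on plain rows against 0.27 in the others.

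Against Input, IgG in 22Rv1 was lower on 17 plain rows and higher on 0, with 7.29% of the other names lower and 0.0124% higher. On .primary rows 20 were lower and 1 higher, against 6.78% and 0.595%. No ratio was called by limma, in the ZNF genes or in the others (0% either way), and 25 ZNF genes, or 13.7%, had an unadjusted p-value under 0.05, against 10.3% of the others. All 182 genes were lower in IgG on each row at the deposited scaling. That scaling sets IgG low as a whole. The signal summed over all rows was 189332, 163637 and 292864 in IgG and 5.01e+07 and 3.80e+07 in Input. ZNF133 had no read in the 3 IgG libraries on its plain row and 14.1 and 12.2 RPM in Input. Against a floor of 3 reads per library, averaged over the 3, that is at least 4.64-fold lower. ZNF430.primary had 3 reads in all IgG libraries and 1581 in Input, a ratio of 0.0182 with an exact 95% interval of 0.00375 to 0.0533 that covers counting error only. Among the other named rows, ZNF200 had 1 read in IgG against 644 in Input and ZNF622 had 6 against 992, both on plain rows. ZNF189.primary had 2 against 1053 and ZNF529.primary 4 against 1506.

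Brg1 was higher than IgG on 12 plain rows and lower on 4, where 5.17% and 1.79% of the other names were. On .primary rows 22 were higher and 0 lower, where 7.53% and 0.136% were. No ratio was called by limma (0% of the others either way), while 24 ZNF genes, or 13.2%, had an unadjusted p-value under 0.05, against 14.1% of the others. ZNF664 was among the plain rows lower in Brg1 than in IgG (log2 fold change -2.25, SE 0.46, adjusted p = 0.0157). At the deposited scaling, all 182 genes were higher in Brg1 than in IgG on each row. The signal summed over all rows was 3.89e+07 and 2.71e+07 in Brg1 there, far above the IgG sums given before. Leaving out a single library moved these counts widely. Without IgG replicate A, B or C in turn, Brg1 against IgG gave 46, 40 and 54 plain rows, 46, 36 and 58 .primary rows and 27, 18 and 18 ratios. Without Brg1 replicate A or B it gave 5 and 4 plain rows and 9 and 10 .primary rows. IgG against Input gave 43, 35 and 57 plain rows and 8, 1 and 17 ratios without IgG replicate A, B or C, and 44 and 67 .primary rows without A or C. Without Input replicate A or B it gave 9 and 8 plain rows and 10 and 11 .primary rows.

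In LNCaP fewer ZNF rows were called with Brg1 than in 22Rv1, and the difference between the lines was not tested. Their plain rows took 0.406% and 0.421% of Input reads and 0.342% and 0.300% of Brg1 reads. Their .primary rows took 0.579% and 0.466% in Input and 0.515% and 0.616% in Brg1, so the groups overlapped. On plain rows 41 genes fell and 4 rose, where 20.3% of the other 7811 names fell and 1.4% rose. The medians were -0.39 and -0.28. The deposited scaling gave 177 plain rows lower and 0 higher. On .primary rows 29 rose and 31 fell, where 18.3% and 9.78% did, with medians of -0.15 and 0.03. TMM scaling gave 32 and 20, and the deposited scaling 0 and 152. The ratio rose in 24 genes and fell in 2, where 11.7% and 1.4% did.

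These LNCaP calls rest on few libraries. Without Input replicate B, 5 plain rows, 3 .primary rows and 2 ratios were called, and without Input replicate A, 7, 9 and 4. Without Brg1 replicate B, 29 plain rows and 17 ratios were called. With the shallow IgG libraries in the fit limma called 0 ZNF genes, with 36 plain rows, 23 .primary rows and 28 ratios at an unadjusted p-value under 0.05. These are 19.8%, 12.6% and 15.4% of the ZNF genes, where the other names had 13.4%, 10.2% and 11.4%.

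ZNF337, ZNF678 and ZNF664 had the largest falls on plain rows in LNCaP. ZNF337 had 16.9 and 15.6 RPM in Input and 4.71 and 0.722 in Brg1, which differ widely from each other (log2 fold change -2.46, SE 0.33, adjusted p = 4.96e-11). That p-value uses a spread pooled over rows, because limma estimated the same spread for all rows at a given level. ZNF664 had 97.2 and 115 RPM in Input and 41.8 and 25.3 in Brg1 (log2 fold change -1.67, SE 0.25, adjusted p = 5.63e-09). Its .primary row rose from 39.1 and 38.2 to 65.8 and 93.0 RPM.

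ZNF721, ZNF574 and ZNF446 rose on plain rows in LNCaP. ZNF721 had 17.6 and 21.8 RPM in Input and 39.9 and 38.0 in Brg1 (log2 fold change 0.95, SE 0.26, adjusted p = 0.00208). At the deposited scaling the sign of all 3 turned. On .primary rows ZNF16 rose by 1.33, ZNF787 by 1.30 and ZNF780B by 1.25 on the log2 scale. ZNF780B had 37.9 and 30.1 RPM in Input and 80.2 and 83.1 in Brg1. At the deposited scaling ZNF787 and ZNF780B were no longer above Input. ZNF574 and ZNF121 each fell by 1.24 and ZNF248 by 1.07. ZNF391, with ZNF337 and ZNF678, had the largest rises in ratio, at 2.78, 3.21 and 3.13.

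The lines share no library, so their changes can be set side by side. Across the 182 genes, the Brg1 against Input log2 fold changes in 22Rv1 and LNCaP had Pearson r = 0.877 and Spearman rho = 0.858 on .primary rows. They had r = 0.453 and rho = 0.407 on plain rows, and r = 0.707 and rho = 0.674 in the ratio. Genes are not independent replicates, and these values are a description. In the 6750 other names, r was 0.880 on .primary rows, 0.703 on plain rows and 0.794 in the ratio. On .primary rows, 28 genes rose in both lines, which is 48.3% of the 58 in 22Rv1 and 96.6% of the 29 in LNCaP. In the other names these shares were 41.5% and 97.6%. A further 17 fell in both, which is 58.6% of the 29 in 22Rv1 and 54.8% of the 31 in LNCaP. The other names had 50.7% and 70.2%. On .primary rows 0 ZNF genes and 0 of the 6750 other names were called in opposite directions. On plain rows 32 fell in both, 1 rose in both and 1 was called in opposite directions, as were 19 of the other names. The 1 rise is 12.5% of those in 22Rv1 and 25% of those in LNCaP, against 25.6% and 23.3% in the other names. The 32 are 27.6% of the falls in 22Rv1 and 78.0% of those in LNCaP, where the other names had 25.9% and 97.9%.

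ZNF767P.primary rose in both lines, with 133 and 106 RPM in LNCaP Input and 251 and 304 in LNCaP Brg1. ZNF704.primary had 43.7 and 36.2 RPM in LNCaP Input and 86.7 and 101 in LNCaP Brg1. The LNCaP IgG libraries stood at 316 and 389 RPM for ZNF767P and 180 and 302 for ZNF704, above Brg1 in each case, though on few reads.

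**Figure D5:**
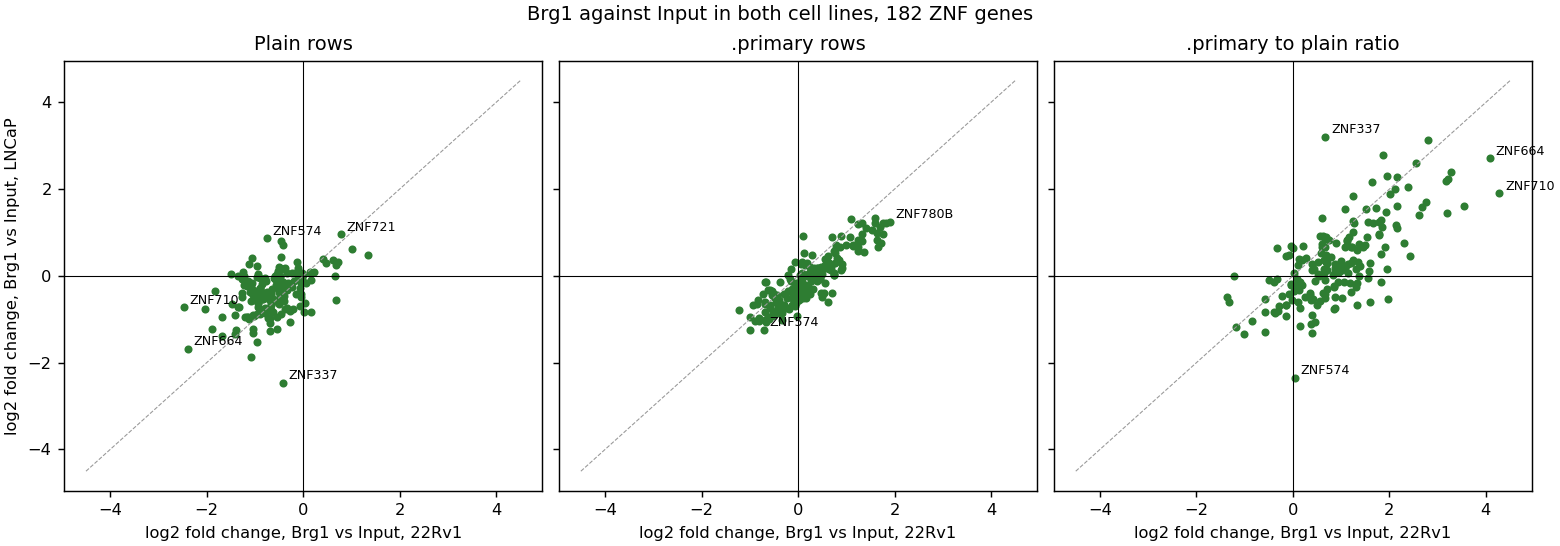
Log2 fold change of Brg1 against Input in 22Rv1 (x axis) and LNCaP (y axis) for the 182 ZNF genes on plain rows, .primary rows and in the ratio; each point is 1 gene and the dashed line marks equality. The .primary points follow a line (r = 0.877) more closely than the plain points (r = 0.453). Of 8 genes whose plain-row libraries lay apart in opposite directions, ZNF574 was the 1 called in both lines.

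Genes were also listed by known role, and the lists do not cover the family. All 5 listed for RNA or ribosomes are members, as are 11 of 12 listed for chromatin complexes. So are 8 of 10 listed DNA-binding regulators without a KRAB domain, and 7 of 21 listed KRAB repressors. ZNF780B and ZNF850, KRAB genes named above, are in no list. The counts below are for 22Rv1, each list is small, and no list was tested against the other names.

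In the RNA and ribosome list, 4 of 5 plain rows were lower in Brg1 than in Sfpq, where 75.3% of the other names were. With Sfpq against Input 3 of 5 .primary rows fell and 1 rose, where 62% and 10.9% of the other names did, so both counts are near the background. ZNF638, an RNA-binding protein, had 237 and 225 RPM on its .primary row in Input, 404 and 379 in Brg1, and 119 and 121 in Sfpq. It rose by 0.76 with Brg1 and fell by 0.94 with Sfpq on the log2 scale, both against Input. In Brg1 against IgG, 0 of the 5 .primary rows of this list, ZNF638 included, were called, where 7.53% of the other names were higher. ZNF326, a subunit of a complex that links transcription to splicing, fell by 1.57 with Sfpq on its .primary row, from 34.7 and 32.8 to 11.2 and 10.2 RPM. ZNF622, a ribosome assembly factor, was called on neither row in Brg1 or Sfpq against Input.

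In the chromatin complex list, all 11 plain rows fell in Brg1 against Input and 10 rose in Sfpq against Input. Of the other names 75.7% and 41.2% did, and of all 182 ZNF genes 63.7% and 68.7%. All 11 ratios were higher in Brg1 than in Sfpq, where 81.4% of the other names and 92.3% of all ZNF genes were. ZNF592, which works with ZMYND8, had 109 and 117 RPM on its plain row in Input, 64.5 and 55.8 in Brg1, and 316 and 341 in Sfpq. ZNF512B, a NuRD-binding protein, had 97.7 and 111 RPM in Input, 52.4 and 58.3 in Brg1, and 182 and 206 in Sfpq. ZNF827, which brings NuRD to telomeres, rose on its .primary row with Brg1, from 60.3 and 54.2 to 189 and 188 RPM, with IgG at 258, 156 and 104. ZNF462 also rose there, from 5.74 and 7.36 to 23.3 and 25.7 RPM. In Brg1 against IgG, 0 of the 11 .primary rows of this list were called, where 7.53% of the other names were higher.

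In the list of regulators without KRAB, all 8 .primary rows fell in Sfpq against Input, where 62% of the other names did. With Brg1 against Input 6 plain rows fell, which is near the 75.7% of the others. ZNF207, a spindle assembly factor, fell by 1.59 on its .primary row with Sfpq, from 37.9 and 32.3 to 9.94 and 12.1 RPM, while its plain row had 152 and 148 RPM in Input and 167 and 126 in Sfpq. ZNF410, an activator of the NuRD gene CHD4, fell by 1.23 with Sfpq and by 0.69 with Brg1 on its .primary row. ZNF24 and ZNF131 both rose on plain rows with Sfpq, by 0.67 and 0.92.

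In the KRAB list, all 7 plain rows were lower in Brg1 than in Sfpq, and 4 fell against Input. Of the other names 75.3% and 75.7% did, and of all 182 ZNF genes 87.4% and 63.7%. ZNF202 fell on its plain row with Brg1, from 9.69 and 15.2 to 3.85 and 2.5 RPM, and rose on its .primary row from 13.2 and 11.8 to 29.9 and 32.3 RPM. ZNF274, which binds the ends of other ZNF genes and recruits SETDB1, rose by 0.74 on its .primary row with Brg1, from 15.1 and 14.2 to 26.0 and 24.5 RPM. In Brg1 against IgG, 0 of the 7 .primary rows of this list were called, where 7.53% of the other names were higher. The log2 .primary to plain ratio of ZNF202 was 2.95 and 3.68 in Brg1 and 8.58, -1 and -3.585 in IgG. That of ZNF274 was 1.39 and 1.44 in Brg1 and -2.85, 6.44 and -0.263 in IgG. ZNF268 rose by 1.47 on its plain row with Sfpq, and ZNF496 fell by 1.33 on its plain row with Brg1.

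The partners of KRAB proteins, such as TRIM28, SETDB1 and the HP1 and NuRD genes, were listed apart from the family. Of 20 listed, 19 had a plain and 17 a .primary row in 22Rv1. With Brg1 against Input, 15 plain rows fell and 0 rose, and 4 .primary rows rose and 6 fell. Among the other names, 75.7% and 1.55% did so on plain rows and 44.9% and 12% on .primary rows. With Sfpq, 12 plain rows rose and 2 fell, where 41.2% and 17.1% did, and 13 .primary rows fell and 0 rose, where 62% and 10.9% did. In LNCaP with Brg1, 1 of 19 plain rows rose and 1 fell, where 1.4% and 20.3% of the others did, and 6 of 16 .primary rows fell, where 9.78% did.

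On chromosome 19, where 60 of the genes lie, 42 plain rows rose with Sfpq and 2 fell (median 0.92). The ratio fell in 48 and rose in 2 (median -1.88). The 392 other names with both rows there had 25.8% of plain rows higher and 27.8% lower with Sfpq (median -0.02), and 24.7% of ratios higher and 23.0% lower. The 122 ZNF genes on other chromosomes had 83 plain rows higher and 4 lower (median 0.75), and 91 ratios lower and 3 higher (median -1.53). The 7327 other names there had 42.7% of plain rows higher and 16.3% lower (median 0.30), and 57.9% of ratios lower and 8.28% higher (median -1.01). With Brg1, 15 .primary rows of chromosome 19 ZNF genes rose and 10 fell (median -0.03). Of the other names there 18.4% rose and 20.7% fell, against 46.1% and 11.5% elsewhere. By length, the 91 genes at or above the median had a median Sfpq ratio change of -1.81 and the 91 shorter ones -1.36. No test of these differences between classes was run.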

How the data were processed

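The authors deposited 1 table of normalized counts per cell line, here called a signal. The submitters' processing notes name STAR 2.6, Salmon 0.8.2, deepTools 2.5.2, DESeq2 and hg38, with no role for each. How the authors chose the library factors is not given in the sources used here; per the labels, ERCC spike-ins went into every library. Tested on the files, 100% of values were whole multiples of the smallest positive value of their column within 0.001 read, and these multiples were used as reads. Shares ignore how much RNA each precipitate held.

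Rows with a mean of at least 1 RPM were fitted with limma 3.58.1 (eBayes with trend, R 4.3.3) on log2(RPM + 1). Ratios were log2((.primary reads + 1)/(plain reads + 1)), for names with a mean of at least 20 reads. Brg1, Sfpq and Input of 22Rv1 shared 1 fit, contrasts with IgG used all 9 libraries of 22Rv1, and LNCaP Brg1 and Input formed 1 fit. Benjamini-Hochberg adjustment ran over all rows fitted. The level and ratio fits were tested on simulated reads for the 22Rv1 Brg1, Sfpq and Input libraries only. The fit with IgG and the LNCaP fit were not tested in this way. Alternatives were edgeR 4.0.16 (quasi-likelihood), TMM or deposited scaling, other pseudocounts and filters, other sets of groups, the replicate letter as a block, and leaving out each library.

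Genes named were, per contrast and kind of row, up to 3 called rows in each direction with the largest change and no overlap between groups, and up to 4 per role list: the 2 most abundant and the 2 with the largest change in Brg1 .primary rows. Other values of these genes stand beside them; those of ZNF710, ZNF189 and ZNF664 on their second row were added after their values were seen. The members and lists were chosen with earlier results of these data known. KRAB and finger classes from protein sequence were not analysed here.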

Additional observations from a re-analysis of the deposited data

Results flagged for a closer look

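The plain row of ZNF574 fell with Brg1 in 22Rv1 and rose with it in LNCaP. Rows of opposite direction were sought by a lack of overlap between Brg1 and Input in both lines. Of the 182 plain rows 8 met this, and ZNF574 was the 1 called in both lines. Among the 6750 other names, 19 were called in opposite directions on plain rows. For ZNF574 the log2 fold change of Brg1 against Input was -0.76 in 22Rv1, where Input had 16.9 and 17.0 RPM and Brg1 9.11 and 10.1. It was 0.87 in LNCaP, where Input had 6.1 and 5.06 RPM and Brg1 12.6 and 9.53. The difference between the lines was not tested, and the LNCaP value turned to -0.39 at the deposited scaling.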

How the results depend on the processing

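Values below are counts of the 182 genes called, with no share of the other names beside them. At the deposited scaling they were 82 (plain) and 25 (.primary) for Brg1 against Input, 22 (plain) for Sfpq against Input, 76 (.primary) for Brg1 against Sfpq, 182 and 182 lower for IgG against Input, 182 and 182 higher for Brg1 against IgG, and 177 and 152 lower for LNCaP Brg1. The LNCaP plain rows ZNF721 (-0.39), ZNF574 (-0.39) and ZNF446 (-0.51) changed sign there, as did LNCaP ZNF787.primary (-0.018) and ZNF780B.primary (-0.10), and 22Rv1 ZNF704.primary in IgG (-6.13). At this scaling the median log2 fold change of all rows was -0.70 for Brg1 and -0.72 for Sfpq against Input in 22Rv1, and -1.46 for Brg1 in LNCaP. With all groups of a line in the fit, 0 genes were called in Brg1 or Sfpq against Input in either line, and 7, 4 and 0 in Brg1 against Sfpq. edgeR with TMM called 9 plain rows in IgG against Input. Replicate letters did not pair the 22Rv1 libraries: deviations of same-letter libraries correlated between -0.146 and 0.0475. The replicate block gave 55, 57 and 12 (plain, .primary, ratio) in IgG against Input, 46, 54 and 9 in Brg1 against IgG, and 12, 8 and 3 in LNCaP, and it moved the other counts by less than 1.5 times. In LNCaP same-letter deviations correlated at -0.354, and a block with crossed letters, added after the data were seen, gave 82, 95 and 57.

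Leaving out each library gave ranges for plain rows, .primary rows and ratios. Brg1 against Input gave 91 to 126, 57 to 96 and 63 to 99. Sfpq against Input gave 115 to 133, 86 to 121 and 122 to 149. Brg1 against Sfpq gave 154 to 161, 117 to 131 and 156 to 166. IgG against Input gave 8 to 57, 10 to 67 and 0 to 17, and Brg1 against IgG 4 to 54, 9 to 58 and 0 to 27. LNCaP gave 5 to 58, 3 to 53 and 2 to 37. A group left with 1 library is assumed to vary like the others. Depth limits the IgG contrasts: the floor of 3 reads was 0.678, 1.71 and 6.11 RPM in 22Rv1 IgG and 135 and 64.8 RPM in LNCaP IgG.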
